A study of Mus musculus with 4 samples.

Results

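The 9 genes described here, which encode transcription regulators of muscle, were Mef2a, Mef2c, Mef2d, Six2, Six4, Six5, Eya1, Eya2 and Eya4, and they were taken by gene symbol from the 20193 genes named in the authors' deposited expression table. The table lists each of the 9 with a single probe set, and all 9 were tested with no filter on level. The cells were C2C12, an established mouse myoblast line, kept in growth medium with 20% FBS, and each group had 2 arrays. One group carried the empty plasmid pcDNA3.1/Zeo(+). The other, called the Myolinc line below, was a polyclonal line carrying the long noncoding RNA Myolinc in that plasmid. Both groups had been transfected with Lipofectamine and selected with Zeocin, and as far as the labels say each group was 1 selected line, so line and plasmid cannot be told apart. The level of Myolinc itself was not analysed here.

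MEF2 proteins bind A/T-rich DNA through a MADS box and act together with the MyoD family of bHLH factors to switch on contractile genes as myoblasts differentiate. SIX-family proteins are homeodomain factors that bind the MEF3 sequence in muscle promoters. EYA proteins do not bind DNA themselves: they are coactivators of SIX-family proteins and carry a phosphatase domain. In the mouse embryo, SIX-family and EYA factors act upstream of the MyoD family in muscle precursors.

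The promoters of Mef2a and Six4 are shown because each holds the binding sequence of its own protein family. RefSeq promoter windows on GRCm38.p6, 250 bases before to 50 after a gene start, were available for 7 of the 9 genes, in 11 windows. Both strands were searched for the MEF2 site, the MEF3 site TCAGGTTTC, the E-box CANNTG bound by bHLH factors and the CArG box of SRF. The MEF2 pattern was C or T, then TA, a fixed run of A or T bases, TA, and A or G. The CArG pattern was CC, a fixed run of A or T bases, and GG. No match of one motif overlapped a match of another. Capitals mark the MEF2 site in Mef2a and the MEF3 site, on the opposite strand, in Six4.
Mef2a promoter, chr7:67372809-67373108, minus strand: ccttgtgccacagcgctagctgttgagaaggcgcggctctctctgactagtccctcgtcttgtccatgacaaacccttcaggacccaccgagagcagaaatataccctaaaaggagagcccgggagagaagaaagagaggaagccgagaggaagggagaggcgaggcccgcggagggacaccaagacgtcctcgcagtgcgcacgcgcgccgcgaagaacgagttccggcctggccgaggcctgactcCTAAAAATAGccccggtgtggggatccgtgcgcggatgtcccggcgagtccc
Six4 promoter, chr12:73113196-73113495, minus strand: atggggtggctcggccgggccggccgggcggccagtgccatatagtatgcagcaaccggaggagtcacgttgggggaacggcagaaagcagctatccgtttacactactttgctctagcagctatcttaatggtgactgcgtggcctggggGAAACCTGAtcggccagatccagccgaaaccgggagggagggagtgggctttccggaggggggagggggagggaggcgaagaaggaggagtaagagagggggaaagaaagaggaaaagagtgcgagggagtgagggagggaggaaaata

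The MEF2 site of Mef2a ran from base -2 to base 8, counted from the gene start as base 1 with no base 0. The MEF3 site of Six4 ran from base -99 to base -91. A MEF2 site occurred in 3.19% and a MEF3 site in 0.429% of all 32851 windows of this length. E-boxes were found in windows of Mef2c (CAAGTG and CATATG in one, CAGATG in another) and of Eya4 (CACTTG, the same site in its overlapping pair of windows), beside 72.3% of all windows. No CArG box was found in these 11 windows, beside 1.63% of all windows. A match is a run of letters and does not show that a factor binds there.

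None of the 9 genes passed an adjusted p under 0.05 in limma, with 0 that rose beside 4.61% of all genes and 0 that fell beside 4.65%. At an unadjusted p under 0.05 the count was 3 of 9, Six5, Mef2a and Six2, beside 26.7% of all genes. Both Myolinc readings stood above both empty vector readings for 3 genes (Mef2a, Mef2c and Six2), beside 27.9% of all genes, and below them for 2 (Six5 and Eya4), beside 26.0%. These shares lie near the background. In such bulk RNA, fewer cells of a type and less RNA per cell cannot be told apart. The log2 differences of the 9 genes, Myolinc line minus empty vector, ran from -0.28 to 0.27 with a median of 0.04, while the median over all genes was 0.02. The median size of the difference, sign left aside, was 0.16 for the 9 genes and 0.12 for all genes. Among the 1870 genes that passed, the smallest difference was 0.314 and the median 0.538, so each of the 9 had a smaller difference than any gene that passed.

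Of the MEF2 genes, all 3 had a positive log2 difference and none passed. Mef2a, whose product is broadly expressed, read 11.05 and 11.03 on the log2 scale in empty vector cells and 11.24 and 11.36 in the Myolinc line. Both Myolinc arrays lay above both empty vector arrays. The log2 difference was 0.26 (SE 0.07, 95% interval 0.06 to 0.46), or 1.20-fold, with an adjusted p of 0.111. The call on Mef2a depended on the settings. Its adjusted p was 0.00888 where eBayes used a mean-variance trend with robust fitting, and 0.0228 where probe sets of low signal had been removed before the fit. Mef2a did not pass where the replicate number was added to the limma model (adjusted p = 0.145). Nor did it with arrays centred on their medians (0.273) or in an ordinary linear model (0.235).

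Mef2c, which is needed for heart and skeletal muscle differentiation, read 5.57 and 5.33 in empty vector cells and 5.76 and 5.67 in the Myolinc line. All 4 readings were under 7.27, the median level of the probe sets tested. The groups did not overlap, but the empty vector arrays had an SD of 0.17, and the log2 difference of 0.26 (SE 0.10) had an interval from -0.02 to 0.55 and an adjusted p of 0.217. It was 0.14 without empty vector replicate 2 and 0.38 without replicate 1. For Mef2d, another MEF2 factor of myoblasts, the readings were 7.68 and 7.73 in empty vector cells and 7.73 and 7.99 in the Myolinc line. Here replicate 1 of the Myolinc line sat with the empty vector arrays, and the positive difference of 0.16 (SE 0.11, interval -0.14 to 0.45, adjusted p = 0.460) came from replicate 2. Without that array it was 0.03.

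**Figure D1:**
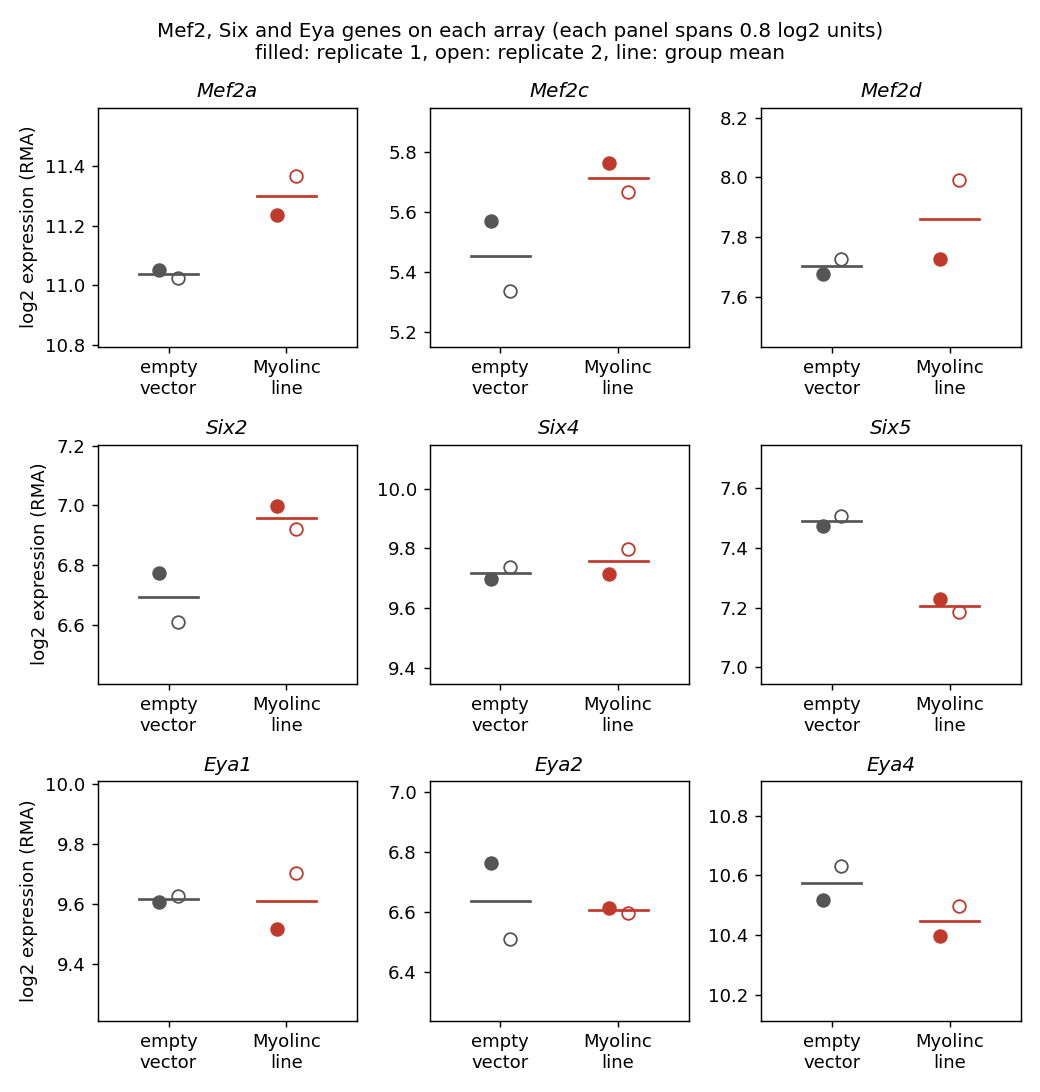
Log2 expression of each of the 9 genes on the 4 arrays, with empty vector in grey, the Myolinc line in red, filled points for replicate 1, open points for replicate 2 and lines at the group means. The groups stand apart for Mef2a, Mef2c, Six2, Six5 and Eya4 and overlap for the other 4 genes.

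Of the 3 SIX-family genes, 2 had a positive and 1 a negative log2 difference, and none passed. Six5 encodes a SIX-family factor and lies beside Dmpk, the gene of the myotonic dystrophy kinase. Its readings were 7.47 and 7.51 in empty vector cells and 7.23 and 7.18 in the Myolinc line, so both Myolinc arrays were lower. The log2 difference of -0.28 (SE 0.06, interval -0.45 to -0.12, adjusted p = 0.0657), or 0.821 of the empty vector level, was the largest of the 9 genes in size, and 18.2% of all genes had a difference at least as large. Its Myolinc readings lay under the median level of 7.27 and its empty vector readings above it. The adjusted p of Six5 was 0.00932 where probe sets with a mean over the 4 arrays under the median had been removed, a filter that Six5 met through its empty vector readings, so that value is no support for a call. It was 0.0504 in a fit of the named genes alone and 0.0399 where chromosome medians had also been removed. Six5 did not pass where the replicate number was added to the limma model (adjusted p = 0.106). Nor did it with arrays centred on their medians (0.078) or in an ordinary linear model (0.117).

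Six2, known for keeping kidney progenitors undifferentiated, read 6.77 and 6.61 in empty vector cells and 6.997 and 6.92 in the Myolinc line. Both Myolinc arrays were higher, though all 4 readings were below the median level. Its log2 difference was 0.27 (SE 0.08, interval 0.04 to 0.50, adjusted p = 0.144). Six4, a factor of the early muscle programme of the mouse embryo, read 9.70 and 9.74 in empty vector cells and 9.71 and 9.80 in the Myolinc line. These groups overlapped, and the difference of 0.04 (SE 0.06, adjusted p = 0.782) had an interval from -0.14 to 0.22. Its sign turned to -0.00197 when arrays were centred on their medians.

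All 3 EYA genes had small negative log2 differences, and none passed. Eya4, a coactivator known from inherited hearing loss in humans, read 10.52 and 10.63 in empty vector cells and 10.40 and 10.50 in the Myolinc line. The higher Myolinc array lay just below the lower empty vector array, and the difference was -0.13 (SE 0.08, interval -0.34 to 0.08, adjusted p = 0.394). It was -0.07 without empty vector replicate 2 and -0.08 without Myolinc replicate 1. Eya1, a coactivator of ear, kidney and muscle development, read 9.61 and 9.63 in empty vector cells and 9.51 and 9.70 in the Myolinc line. The Myolinc arrays of Eya1 fell on either side of the empty vector arrays, with a difference of -0.01 (SE 0.09, interval -0.24 to 0.23, adjusted p = 0.976). For Eya2, a coactivator found in developing muscle, the readings were 6.76 and 6.51 in empty vector cells and 6.61 and 6.60 in the Myolinc line. The Myolinc arrays lay between the empty vector arrays, all below the median level, and the difference was -0.03 (SE 0.10, interval -0.31 to 0.25, adjusted p = 0.903). The interval of each EYA gene therefore reaches changes of at least 0.08 in either direction, and a missed threshold does not show an unchanged level.

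**Figure D2:**
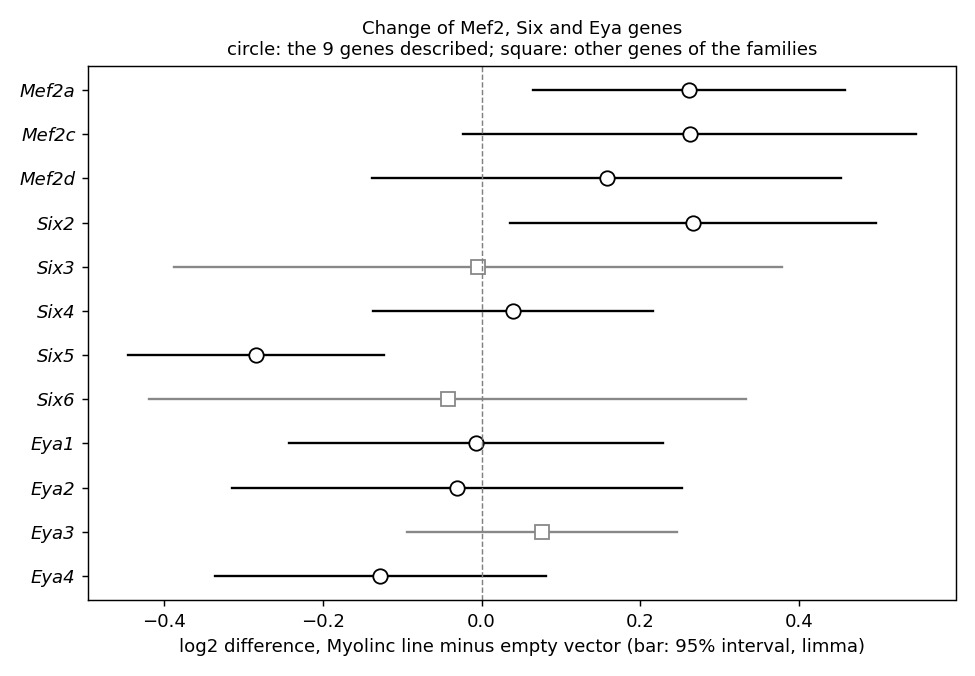
Log2 difference, Myolinc line minus empty vector, of the 9 genes (circles) and of 3 other genes of the families (squares), with the 95% interval of the limma fit as a bar. Of the 9 genes, the intervals of Mef2a, Six2 and Six5 lie on one side of 0.

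Of the other genes of these families, Six3, Six6 and Eya3 are described here, and none passed. Eya3, a broadly expressed EYA gene, had a log2 difference of 0.08 (SE 0.06, interval -0.09 to 0.25, adjusted p = 0.539). Six6, known from eye development, had -0.04 (SE 0.14, interval -0.42 to 0.33, adjusted p = 0.900). Six3, an eye and forebrain factor, had -0.00 (-0.00419, SE 0.14, adjusted p = 0.990). Both Six6 and Six3 read under the median level on every array. In the GRCm38.p6 gene order Six3 lies next to Six2 on chromosome 17, with 0 protein-coding genes between them.

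In the authors' deposited table the log2 fold changes of the 9 genes were the same to 3 decimals, for example -0.284 for Six5 and 0.262 for Mef2a. The p in that table, whose submitters name limma in their processing notes, is 0.01202 for Six5, 0.02882 for Mef2a and 0.0432 for Six2, and above 0.05 for the other 6. This count of 3 of 9 in the authors' deposited table stands beside 23.8% of all genes with such a p, which is not stated to be adjusted.

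The genes whose readings were most like those of Six5 across the 4 arrays were Cds2, Umps and BC022687. Likeness was the Euclidean distance between the 4 log2 values after subtracting each gene's own mean, and it was 0.00548, 0.00813 and 0.0115. With 4 arrays in 2 groups, such closeness says little more than that the genes share a difference, here -0.29 for Cds2, -0.28 for Umps and -0.28 for BC022687, and a replicate spread.

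**Figure D3:**
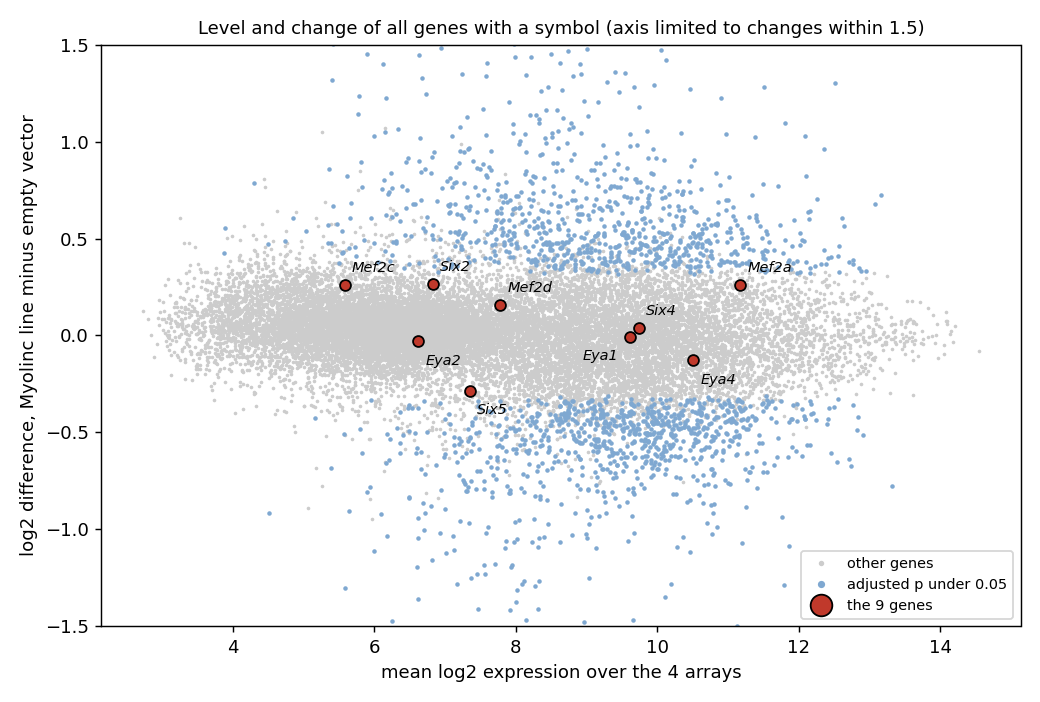
Mean log2 expression over the 4 arrays against the log2 difference, Myolinc line minus empty vector, for all genes with a symbol, with genes at an adjusted p under 0.05 in blue and the 9 genes in red; the axis ends at differences of 1.5 in size. The 9 genes lie within the band of genes that did not pass, between -0.28 and 0.27.

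Myogenic bHLH factors and their E protein partners, with which MEF2 proteins act, were looked at next. Counts in this list and those that follow stand beside 4.61% of all genes that rose and 4.65% that fell. The median over all genes was 0.02. Some genes, such as Myf5, Myog and Ckm, are in more than 1 list. Of 7 measured genes 2 rose, 0 fell and 5 did not pass, and the median log2 difference was 0.14. Tcf4, an E protein, rose by 0.52 (SE 0.06, adjusted p = 0.0222), from 10.34 and 10.36 in empty vector cells to 10.85 and 10.89 in the Myolinc line. Myf5, the early myogenic factor, rose by 0.38 (SE 0.07) at an adjusted p of 0.0496. The call on Myf5 was lost with adjustment over all probe sets (0.0580), with arrays centred on their medians (0.109) and with chromosome medians removed (0.0505). Myod1 had a difference of 0.07 (SE 0.06) and Myog, which comes on during differentiation, 0.06 (SE 0.09), and neither passed. Myog, unlike Myod1, read under the median level on every array.

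Of 20 measured cofactors and signalling genes of MEF2, 0 rose, 2 fell and 18 did not pass, with a median of 0.04. Hdac7, a class IIa deacetylase that binds and represses MEF2 proteins, read 10.45 and 10.47 in empty vector cells and 9.98 and 9.97 in the Myolinc line. It fell by 0.48 (SE 0.06, adjusted p = 0.0241). Prkd1, a kinase that drives class II deacetylases out of the nucleus, read 7.49 and 7.82 in empty vector cells and 6.34 and 5.93 in the Myolinc line, and fell by 1.52 (SE 0.19, adjusted p = 0.0262). The low Myolinc readings of Prkd1 lay under the median level, so the size of this fall rests on low readings. Hdac4, a repressor of the same class as Hdac7, had -0.07 (SE 0.06, adjusted p = 0.521). Mapk14, the p38 kinase that phosphorylates MEF2 proteins, had -0.23 (SE 0.07, adjusted p = 0.125), and passed with the trended and robust model (0.0225) and with probe sets of low signal removed (0.0271).

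Of 18 measured target genes of MEF2, 4 rose, 1 fell and 13 did not pass, and the median was 0.10. Smyd1, a muscle methyltransferase gene, read 6.77 and 6.81 in empty vector cells and 9.93 and 9.86 in the Myolinc line, a rise of 3.10 (SE 0.06, adjusted p = 0.00204). Xirp2, whose product binds actin in striated muscle, read 5.37 and 5.87 against 8.41 and 8.49, a rise of 2.84 (SE 0.18, adjusted p = 0.0105). Ppargc1a, the coactivator PGC-1alpha of mitochondrial biogenesis, read 5.89 and 6.12 in empty vector cells and 7.25 and 7.42 in the Myolinc line, a rise of 1.33 (SE 0.11, adjusted p = 0.0155). All 3 of these genes read below the median level in empty vector cells, so the sizes of their rises depend on low empty vector readings. In the Myolinc line Smyd1 and Xirp2 read above the median level on both arrays, and Ppargc1a on replicate 2 alone. Des, the muscle intermediate filament desmin, rose by 0.33 (SE 0.06, adjusted p = 0.0468), a call lost with adjustment over all probe sets (0.0550) and with arrays centred on their medians (0.0970). Nr4a1, an orphan nuclear receptor and immediate early gene, fell by 0.70 (SE 0.06, adjusted p = 0.0160), from 8.67 and 8.61 to 7.96 and 7.92. Ckm, muscle creatine kinase, had -0.07 (SE 0.06) and Jun, a classical MEF2 target, 0.15 (SE 0.06), and neither passed, although Jun did with the trended and robust model (adjusted p = 0.0360). Ckm read under the median level on every array.

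Partners of SIX-family and EYA proteins were represented by 11 measured genes, of which 1 rose, 0 fell and 10 did not pass, with a median of 0.06. Aes, which encodes a short Groucho-related protein, read 11.84 and 11.85 in empty vector cells and 12.46 and 12.43 in the Myolinc line. It rose by 0.60 (SE 0.06, adjusted p = 0.0179). Dach1, a corepressor in the SIX-family network, had -0.11 (SE 0.16) and Pax7, the satellite cell factor, -0.21 (SE 0.14), and neither passed. Dach1 read under the median level on every array. The value of Pax7 was -0.03 without empty vector replicate 1 and -0.39 without replicate 2. Of 14 measured SIX-family target genes 2 rose, 1 fell and 11 did not pass, with a median of -0.03.

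Among the SIX-family targets, Igfbp5, a binding protein of insulin-like growth factors that has been linked to Six5 in the mouse, read 10.73 and 10.60 in empty vector cells and 12.59 and 12.66 in the Myolinc line. It rose by 1.96 (SE 0.08, adjusted p = 0.00516). The value of empty vector replicate 2 was stored with 3 digits, and the authors' deposited table gives a log2 fold change of 1.935. Myf5, as above, was the other SIX-family target that rose. Gdnf, a neurotrophic factor, fell by 0.36 (SE 0.06, adjusted p = 0.0386). Ccnd1, cyclin D1, had -0.21 (SE 0.08) and Aldoa, an aldolase gene, -0.05 (SE 0.06), and neither passed, although Ccnd1 did with the trended and robust model (adjusted p = 0.0233).

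**Figure D4:**
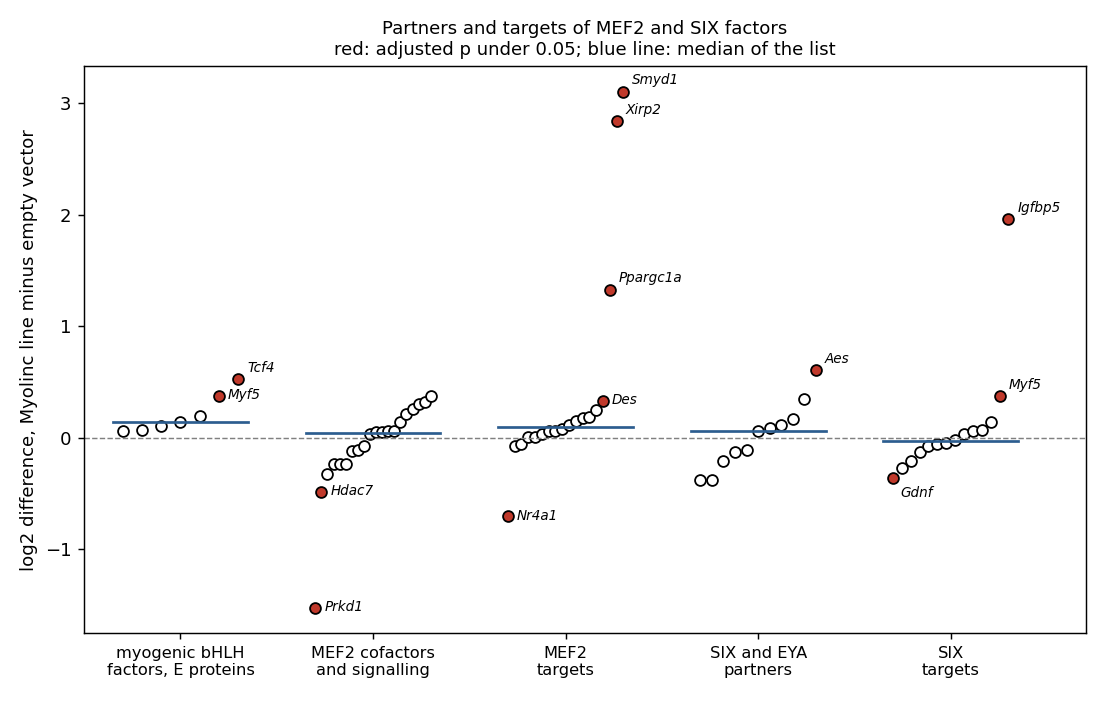
Log2 difference, Myolinc line minus empty vector, of each measured gene in 5 lists of MEF2 and SIX-family partners and targets, ordered within a list, with red for an adjusted p under 0.05 and a blue line at the list's median. Most genes lie near 0, and Smyd1, Xirp2, Igfbp5 and Ppargc1a stand above 1.

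With either empty vector array left out 0 of 20193 genes passed, although the unadjusted limma p was under 0.05 for 3639 genes when replicate 1 was left out and for 3322 when replicate 2 was. Some differences moved little in those fits, to 3.08 and 3.12 for Smyd1 and 2.03 and 1.89 for Igfbp5. The same held for Hdac7 (-0.49 and -0.48) and Aes (0.60 and 0.61). Others moved more, to 2.59 and 3.08 for Xirp2, -1.69 and -1.36 for Prkd1 and 1.21 and 1.44 for Ppargc1a. When either Myolinc array was removed, Smyd1, Xirp2, Ppargc1a, Nr4a1, Prkd1, Aes and Igfbp5 passed, and Hdac7, Des, Myf5 and Gdnf did not. Tcf4 did not pass without Myolinc replicate 1 (adjusted p = 0.0561). For any one gene, permuting 4 arrays exactly gives no p under 0.333.

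The cells carried the markers of their label. All 7 measured myoblast markers read above the median level of 7.27 on all 4 arrays, as did 4 of 7 markers of differentiating muscle, 0 of 5 endothelial and 0 of 3 neuronal markers, 1 of 4 macrophage, 2 of 7 fibroblast, 2 of 5 adipocyte and 2 of 6 osteoblast and chondrocyte markers. Of the 7 myoblast markers, Cdh15 (0.49), Myf5 and Des rose and 4 did not pass. The calls on Myf5 and Des were lost in some settings, as described above. A positive difference was found for 6 of the 7. The exception was Cdh2 (-0.35), which did not pass but read lower on both Myolinc arrays than on both empty vector arrays. Of 7 markers of differentiating muscle, Tnnt1 (0.66) and the myomaker gene Tmem8c (0.48) rose and Acta1 (-0.73) and Actc1 (-0.54) fell. The fibroblast marker Col1a1 (-1.25) fell, but 6 of 7 fibroblast markers did not pass and 4 had a positive difference. The macrophage marker Cd68 (-0.46) fell, but the other 3 of 4 macrophage markers had positive differences and did not pass. The part of any of these marker changes in the changes above was not tested. Array medians ran from 7.24 to 7.35, and with 4 arrays the precision is limited by their number.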

How the data were processed

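Total RNA of 4 C2C12 samples was hybridised to Affymetrix arrays. The submitters' processing notes name RMA and limma without versions, and the deposited values are on the log2 scale. The genome build and the probe annotation's origin were not given in the sources used here. For each gene the authors deposited a p-value beside a log2 fold change.

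Of 35556 rows, 6612 in the lowest probe set numbers, without a symbol, were left out as the control range. limma 3.58.1 in R 4.3.3 (lmFit, eBayes) was fitted to 28944 probe sets, with two-sided p adjusted by Benjamini-Hochberg across 20193 named genes and a threshold of 0.05. Standard errors and intervals are the moderated ones. The fit was tested on simulated data. Replicates are called biological in the labels, which name no separate transfections, so the spread behind each p-value is that of these 4 arrays and could be technical. Chromosomes, found for 19457 genes, came from RefSeq GRCm38.p6. Named were the 9 genes, other measured genes of the families, the genes of each list that passed (up to 6) and up to 2 well-known ones that did not. Genes and lists were chosen with earlier results of these data known. Some genes of the lists are not reported here. Figures used matplotlib 3.10.9.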

Additional observations from a re-analysis of the deposited data

How the results depend on the processing

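Directions of Mef2a, Mef2c, Mef2d, Six2, Six5 and Eya4 were the same in every setting that gave a value. Some log2 differences, most of them near 0 in the reported fit, turned sign. Eya1 was 0.0269 after a further quantile normalization, and leaving out 1 array it ran from -0.10 to 0.0880 (0.00372 without empty vector replicate 2). Six4 was -0.00197 with arrays centred on their medians and ran from -0.00225 to 0.0817 leaving out 1 array. Leaving out 1 array also moved Eya2 from -0.16 to 0.10, Six3 from -0.17 to 0.16, Six6 from -0.19 to 0.11, Myog from -0.0189 to 0.15 and Dach1 from -0.32 to 0.11, with single values of 0.06 for Six6, 0.08 for Six3 and -0.00784 for Myog. The cause was not tested.

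Of the 9 genes, 1 passed with a trended and robust variance model (Mef2a), 2 of the 6 kept with lower-level probe sets left out (Mef2a, and Six5, which met that filter through its empty vector readings), 1 with chromosome medians removed in a fit of named genes alone (Six5) and 1 at an adjusted p under 0.1 (Six5). In the other settings, each left-out array included, 0 passed. Among all genes, 1870 in the reported fit became 362 with a replicate block, 4342 with the trended and robust model, 4346 of 10523 with lower-level probe sets left out, 0 with an ordinary linear model (4577 at an unadjusted p under 0.05), 127 at an adjusted p under 0.01 and 3397 under 0.1. Leaving out 1 array gave 0 to 1226, where a lone array is assumed to vary like the others. Deviations of same-numbered arrays correlated at 0.215 over probe sets. With 2 pairs that shared only a number, the numbers were not taken as pairs. Under the block 0 of the 9 passed, with an adjusted p of 0.106 for Six5. Of the 12 other genes named as rising or falling in the partner and target lists, 7 did not pass under it: Aes (0.0516), Tcf4 (0.0559), Hdac7 (0.0588), Prkd1 (0.0683), Gdnf (0.0750), Myf5 (0.0812) and Des (0.0813). Recovering the 81 values stored with 3 digits, chosen after seeing the data, changed no call among the 9, which hold 0 such values.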
